A study of Homo sapiens with 9 samples.

Results

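The noncoding snoRNA host genes GAS5, SNHG1, SNHG5, SNHG6, SNHG7, SNHG8, SNHG12, SNHG15, SNHG16 and ZFAS1 were followed through polyadenylated RNA of Kyse150 and TE11, established cell lines from squamous carcinoma of the esophagus. These 10 genes were chosen by symbol and matched to their Ensembl identifiers, all of which stand in both count tables, out of 52165 identifiers that the tables share. The 9 libraries form 4 groups: 2 of Kyse150 with an shRNA against KDM2A (shKDM2A), 2 of Kyse150 with the control shRNA (shNC), 2 labelled TE11 shKDM2A and 3 of TE11 shNC. The shRNAs were delivered by lentivirus, and all groups carry one. KDM2A removes methyl groups from a lysine of histone H3 and binds unmethylated CpG through a CXXC domain. The comparison in each line asks how transcripts differ between libraries labelled with the KDM2A and the control shRNA. The labels name no further KDM2A shRNA, so other effects of this shRNA cannot be told apart from those of less KDM2A. Independence of the replicates is stated there, but not at which step they were split, so the error behind each p-value is that among these libraries and may be technical.

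Small nucleolar RNAs (snoRNAs) guide the chemical modification of ribosomal and spliceosomal RNA: box C/D snoRNAs direct methylation of the ribose and box H/ACA snoRNAs direct pseudouridylation. Most human snoRNAs are cut from introns of a host transcript, so that the spliced host RNA and the snoRNA are separate products of 1 transcription event. Many host genes start with a run of pyrimidines, the terminal oligopyrimidine (TOP) element shared with ribosomal protein genes, and ribosomes that enter their short reading frames send several of the spliced noncoding RNAs, GAS5 among them, into nonsense-mediated decay. GAS5 was named for its accumulation in growth-arrested cells. The measurements below are of polyadenylated host RNA and say nothing of the amount of mature snoRNA.

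Gene counts per library came to 6052883 to 7167055 in Kyse150 and 8457767 to 12073098 in TE11. Levels are given as CPM, the usual scaling of counts to a common library size, with totals adjusted by TMM within a table. KDM2A, which checks the labels, stood at 107 and 104 CPM in the Kyse150 shKDM2A libraries, against 172 and 175 CPM in the Kyse150 shNC libraries (log2 fold change -0.71, SE 0.07; edgeR adjusted p = 3.87e-09). It stood at 126 and 140 CPM in the libraries labelled TE11 shKDM2A, against 120, 116 and 120 CPM in TE11 shNC, and was thus not lower there (log2 fold change 0.16, SE 0.07; edgeR adjusted p = 0.0335, a call that several alternatives lose). Over 14910 genes of both tables these labelled libraries correlated at r = 0.917 to 0.922 with the Kyse150 shNC libraries and at 0.806 to 0.808 with the TE11 shNC libraries (Pearson, across genes, which are not independent replicates). With the Kyse150 shKDM2A libraries they correlated at r = 0.878 to 0.884, while the Kyse150 groups correlated with each other at 0.970 to 0.973. Every TE11 direction below is therefore one between libraries as labelled. The 10 squamous markers summed to 1876 to 1926 CPM in the libraries labelled TE11 shKDM2A and to 4198 to 4565 CPM in TE11 shNC. In Kyse150 their sum was 1905 to 1945 CPM in shKDM2A and 2092 to 2160 CPM in shNC. SOX2, a squamous lineage factor, had 1 count in all Kyse150 shKDM2A libraries together, 1 in Kyse150 shNC and 1 in labelled TE11 shKDM2A, but 739 in TE11 shNC. Sums of 7 columnar markers were 6153 to 6357 CPM in labelled TE11 shKDM2A and 3566 to 3959 CPM in TE11 shNC, and 7261 to 7826 CPM in Kyse150 shKDM2A and 6453 to 6542 CPM in Kyse150 shNC. Of the 10 squamous genes 9 were called lower and 1 higher in labelled TE11 shKDM2A, and of 9 tested in Kyse150 4 rose and 3 fell. Over all genes tested, 78.1% were called in either direction in TE11 and 48.2% in Kyse150. Sums of 6 leukocyte markers were 0.752 to 1.78 CPM over all libraries. Those of 6 fibroblast markers were 2.68 to 3.67 CPM in labelled TE11 shKDM2A and 18.2 to 21.2 CPM in TE11 shNC, and 10.8 to 11.8 CPM in Kyse150 shKDM2A and 6.37 to 6.70 CPM in Kyse150 shNC. Endothelial markers, 5 in the TE11 table and 4 in the Kyse150 table, summed to 0.931 to 1.78 CPM in labelled TE11 shKDM2A and 6.63 to 9.27 CPM in TE11 shNC, and to 1.79 to 2.26 CPM in Kyse150 shKDM2A and 1.27 to 2.77 CPM in Kyse150 shNC. The part of these marker differences in the member results was not tested. In bulk RNA, fewer cells of a type and less RNA per cell cannot be told apart.

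The annotated starts of the host genes are shown first, because many snoRNA host genes are known for a pyrimidine run there. RefSeq's promoter table (GRCh38.p14) held 8 of the 10 genes; SNHG6 and SNHG15 were not matched. Each line runs from 50 bases before the annotated start through the first 20 transcribed bases, 5′ to 3′ on the strand of the gene. Capitals mark a run of C followed by at least 4 further pyrimidines that begins within 10 bases of the start; only the longest such run is marked.
GAS5 (chr1:173869026-173869095, reverse strand): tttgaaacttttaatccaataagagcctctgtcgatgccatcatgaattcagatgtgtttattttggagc
SNHG1 (chr11:62855866-62855935, reverse strand): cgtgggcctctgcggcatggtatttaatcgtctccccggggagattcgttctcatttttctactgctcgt
SNHG5 (chr6:85678714-85678783, reverse strand): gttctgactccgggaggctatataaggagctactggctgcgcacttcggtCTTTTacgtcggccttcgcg
SNHG7 (chr9:136728165-136728234, reverse strand): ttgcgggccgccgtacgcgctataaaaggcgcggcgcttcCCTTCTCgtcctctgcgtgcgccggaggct
SNHG8 (chr4:118278712-118278781, forward strand): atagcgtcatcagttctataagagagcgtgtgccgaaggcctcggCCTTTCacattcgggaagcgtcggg
SNHG12 (chr1:28581854-28581923, reverse strand): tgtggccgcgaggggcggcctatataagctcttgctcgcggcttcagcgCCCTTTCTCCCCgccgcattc
SNHG16 (chr17:76557714-76557783, forward strand): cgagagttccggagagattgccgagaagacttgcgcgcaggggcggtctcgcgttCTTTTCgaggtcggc
ZFAS1 (chr20:49278592-49278661, forward strand): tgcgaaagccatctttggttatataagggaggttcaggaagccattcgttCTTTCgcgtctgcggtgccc
Such a run was found in 6 of the 8 promoters, and in 33.5% of all 35116 promoters of the same length searched the same way on the strand of the gene. The longest marked run, with 12 bases, was that of SNHG12. In SNHG7 the capitals begin at the edge of the stretch searched, where further pyrimidines stand directly before them. Among other noncoding snoRNA host genes 10 of 17 promoters had one (58.8%), and among protein-coding ones 29 of 54 (53.7%). The match is one of letters at annotated starts, which differ between annotations: RefSeq's start lies 1259 bases downstream of the edge of the GENCODE gene for SNHG12, 464 bases downstream for ZFAS1 and 163 bases upstream for GAS5. Windows of 300 bases held 23 to 43 CpG dinucleotides in the other 7 promoters and 5 in that of GAS5, against a median of 14 over all promoters. The E-box CACGTG, a palindrome read by MYC, was found in SNHG7 alone, and in 7.26% of all promoters. TGATGCAA, the element read by ATF4, was in none of the 8 on either strand and in 0.866% of all promoters.

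GENCODE release 29 places 26 snoRNA entries inside 9 of the host genes on the same strand, 16 of box C/D, 9 of box H/ACA and 1 without a class in its name. None was found inside GAS5 by this search, although GAS5 is grouped below with the hosts of box C/D snoRNAs. The unclassed entry lies within that of SNORA17A, an H/ACA snoRNA. SNORA17B and SNORA16A each have overlapping entries, so the entries outnumber the places that hold a snoRNA. ZFAS1 hosts the SNORD12 family, whose 3 members are shown because they took up most of the snoRNA counts. Capitals mark box C (TGATGA) and box D (CTGA), which bind the core proteins.
SNORD12C (chr20:49278940-49279028, forward strand): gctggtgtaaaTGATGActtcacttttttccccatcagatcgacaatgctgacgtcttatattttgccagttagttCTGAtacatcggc
SNORD12B (chr20:49280319-49280409, forward strand): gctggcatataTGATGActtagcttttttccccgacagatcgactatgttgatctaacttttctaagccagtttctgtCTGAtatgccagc
SNORD12 (chr20:49280683-49280772, forward strand): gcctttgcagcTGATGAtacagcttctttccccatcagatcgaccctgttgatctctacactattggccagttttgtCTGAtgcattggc
A run of 9 bases, CAGATCGAC, is the longest shared by all 3. In the Kyse150 table SNORD12B held 22 counts in shKDM2A and 10 in shNC, SNORD12 held 10 and 14 in the same order of groups, and SNORD12C held 1 and 7. Over the 6 entries that both tables list the counts summed to 39 in Kyse150 shKDM2A, 34 in Kyse150 shNC, 1 in labelled TE11 shKDM2A and 4 in TE11 shNC. Selection for poly(A) leaves mature snoRNAs mostly out of such libraries, and these counts were too few to compare. The other 20 entries stand in the TE11 table alone, each at 0 counts, and all 20 overlap annotated exons of their host, as some host isoforms keep the intron. This concerns 7 hosts (SNHG1, SNHG5, SNHG7, SNHG8, SNHG12, SNHG15 and SNHG16), so fragments over those bases could be treated differently in the tables. Comparisons within a line use 1 table and 1 annotation, whereas levels set across lines carry this difference, whose size was not tested. SNHG8 hosts the H/ACA snoRNA below, in which capitals mark the ACA box near its end.
SNORA24 (chr4:118279190-118279320, forward strand): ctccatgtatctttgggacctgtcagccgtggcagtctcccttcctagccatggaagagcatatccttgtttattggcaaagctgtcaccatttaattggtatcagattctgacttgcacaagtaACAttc

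The host genes did not move as one block. In Kyse150 shKDM2A 3 of the 10 rose (ZFAS1, SNHG6 and GAS5, 1.23-fold to 1.43-fold), 4 fell (SNHG7, SNHG15, SNHG1 and SNHG12, to 0.524 to 0.749 of shNC) and 3 did not pass the test. In the libraries labelled TE11 shKDM2A 2 were higher (SNHG5, 5.11-fold, and SNHG7, 2.85-fold), 6 were lower (SNHG12, SNHG8, SNHG1, SNHG15, GAS5 and SNHG6, at 0.307 to 0.778 of shNC) and 2 did not pass. The background is high: of 14060 genes tested in Kyse150, 48.2% were called (24.8% higher and 23.3% lower), and of 16453 tested in TE11, 78.1% were called (35.9% higher and 42.2% lower). The shares of members called, 7 of 10 and 8 of 10, are to be read against those values. Among long noncoding genes alone 17.7% were called higher and 13.4% lower in Kyse150, and 27.4% higher and 43% lower in TE11. The median log2 fold change of the members was -0.10 in Kyse150, beside 0.0023 over all genes tested, and -0.38 in TE11, beside -0.09. All tests are edgeR quasi-likelihood tests adjusted over all genes, with 2 libraries against 2 in Kyse150 and 2 against 3 in TE11.

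**Figure D1:**
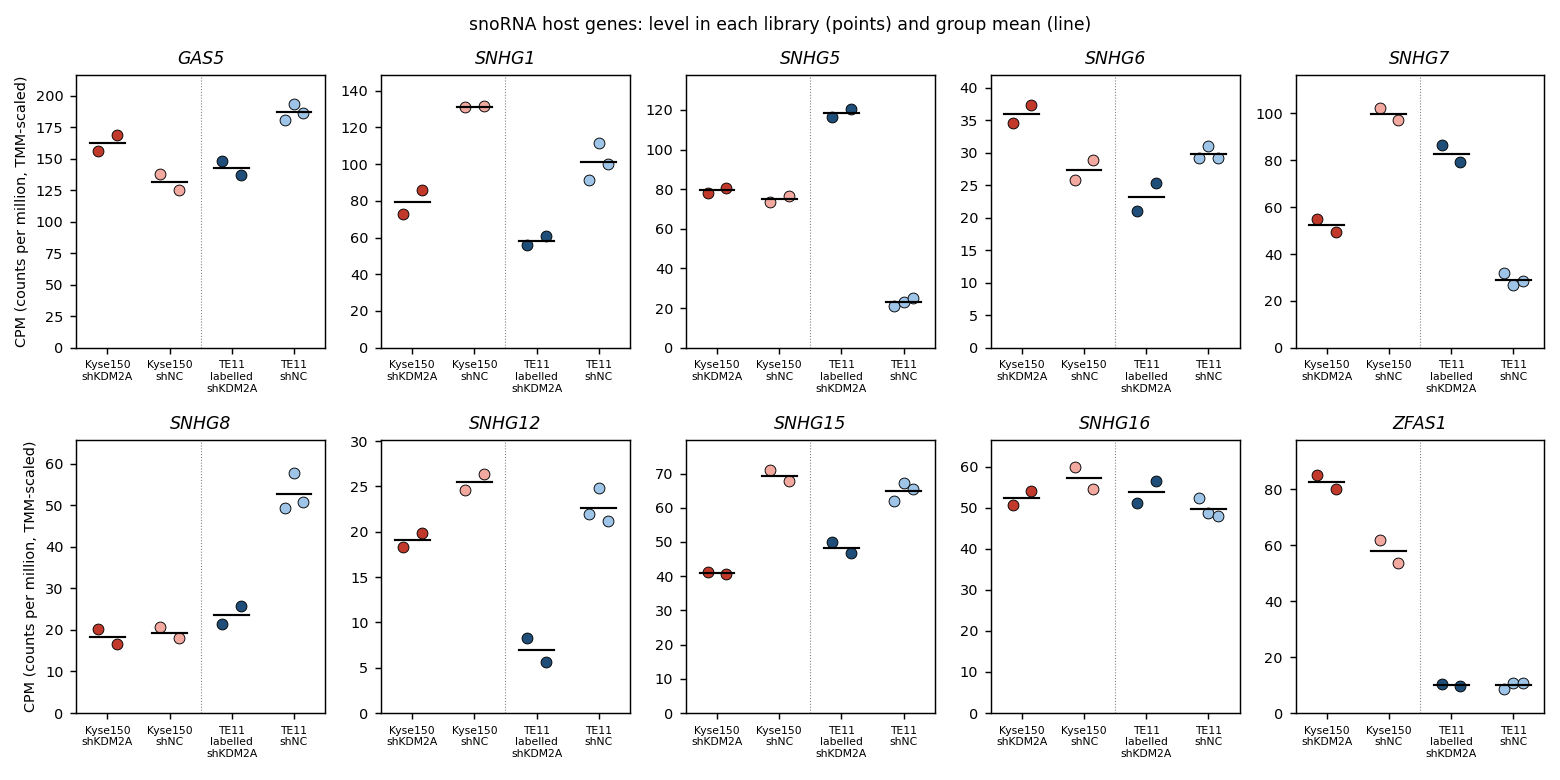
Level of each host gene in CPM (y axis, from 0) in every library, by group (x axis); points are libraries, lines are group means, and the dotted line separates the tables. SNHG5 and SNHG7 stand far higher in labelled TE11 shKDM2A than in TE11 shNC, and ZFAS1 stands at 8.41 to 10.6 CPM in all 5 TE11 libraries.

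The 10 genes summed to 612 and 634 CPM in Kyse150 shKDM2A, against 709 and 679 CPM in Kyse150 shNC. In TE11 the sum was 569 and 567 CPM in the labelled shKDM2A libraries, against 548, 596 and 565 CPM in shNC, so that the labelled libraries lay within the range of the controls although 8 members were called. GAS5 made up 26.1% of the sum in Kyse150 shKDM2A and 18.9% in Kyse150 shNC, and 25.1% in labelled TE11 shKDM2A and 32.8% in TE11 shNC. Per kilobase of merged exons (GENCODE release 29), GAS5 ranked first or second in all 4 groups. The first place went to GAS5 in both Kyse150 groups, to SNHG5 with 42.2 CPM per kb in labelled TE11 shKDM2A and to SNHG8 with 57.0 CPM per kb in TE11 shNC. SNHG12 was last in 3 groups, at 1.63 to 5.98 CPM per kb, and ZFAS1 was last in TE11 shNC at 4.41 CPM per kb. In Kyse150 shNC the ranges over libraries overlapped between GAS5 and SNHG1, between SNHG5 and ZFAS1, and along SNHG7, SNHG6 and SNHG8. Merged exons include retained introns and rare isoforms, so levels per kb of long models can be understated. The lengths are those of GENCODE release 29, whereas the tables were counted with annotations that differ from each other. Whether these lengths match the counted gene models is unknown, and ranks compared across groups of different lines carry this limit.

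The hosts of box C/D snoRNAs come first. GAS5 (ENSG00000234741) lies on the reverse strand of chromosome 1 at 173863900 to 173868882 (GRCh38, as all coordinates here) and is annotated as a noncoding processed transcript. It stood at 156 and 169 CPM in Kyse150 shKDM2A, against 137 and 125 CPM in Kyse150 shNC. It stood at 149 and 137 CPM in labelled TE11 shKDM2A, against 181, 194 and 187 CPM in TE11 shNC. The groups did not overlap in either line, and the directions were opposite. GAS5 thus changed by 0.30 on the log2 scale in Kyse150 (SE 0.07; edgeR adjusted p = 0.00109) and by -0.39 in TE11 (SE 0.07; edgeR adjusted p = 1.58e-06). The difference between the lines was tested in 1 fit of all 9 libraries, in which 66.9% of 15895 genes were called. It was -0.67 for GAS5 (TE11 minus Kyse150, SE 0.10; edgeR adjusted p = 3.36e-08).

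SNHG1 (ENSG00000255717, chromosome 11, 62851988 to 62855914, reverse strand) hosts 7 C/D entries of GENCODE, among them SNORD25 to SNORD28. In both lines it was lower in the libraries labelled shKDM2A. It had 72.6 and 85.9 CPM in Kyse150 shKDM2A, against 131 and 131 CPM in Kyse150 shNC. For TE11 the values were 56.0 and 60.8 CPM in the labelled shKDM2A libraries, against 91.3, 112 and 99.9 CPM in shNC. Every shKDM2A library lay below every shNC library of its line. Both log2 changes were of similar size, -0.73 (SE 0.08; edgeR adjusted p = 3.83e-08) in Kyse150 and -0.79 (SE 0.08; edgeR adjusted p = 1.79e-11) in TE11. Their difference was -0.04 (SE 0.12; edgeR adjusted p = 0.844), which does not show that the responses are equal.

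SNHG5 (ENSG00000203875; chromosome 6, 85660950 to 85678748, reverse strand) hosts SNORD50B. It had 78.2 and 80.9 CPM in Kyse150 shKDM2A, against 73.8 and 76.4 CPM in Kyse150 shNC, or 0.08 on the log2 scale (SE 0.09; edgeR adjusted p = 0.441), narrowly without overlap. In TE11 it had 116 and 120 CPM in the labelled shKDM2A libraries, against 21.1, 23.2 and 25.1 CPM in shNC. On the log2 scale the TE11 difference was 2.35 (SE 0.09; edgeR adjusted p = 8.92e-28), the largest of the members in either line. SNHG5 thus stood apart in the TE11 shNC libraries, which held less of it than any other group. The responses differed by 2.29 between the lines (SE 0.12; edgeR adjusted p = 1.34e-24).

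SNHG6 (ENSG00000245910; chromosome 8, 66921684 to 66926398, reverse strand), the host of SNORD87, had small changes of opposite sign. Its level was 34.6 and 37.4 CPM in Kyse150 shKDM2A, against 25.8 and 28.9 CPM in Kyse150 shNC. It was 21.1 and 25.3 CPM in labelled TE11 shKDM2A, against 29.1, 31.1 and 29.2 CPM in TE11 shNC. The groups were apart in both lines, narrowly. Fitted log2 changes were 0.40 in Kyse150 (SE 0.13; edgeR adjusted p = 0.0111) and -0.36 in TE11 (SE 0.11; edgeR adjusted p = 0.00418). The Kyse150 call was lost without shKDM2A replicate 2 (log2 change 0.34, edgeR adjusted p = 0.0808) or shNC replicate 1 (0.31, 0.11), and the TE11 call without labelled shKDM2A replicate 1 (-0.23, edgeR adjusted p = 0.156). The difference between the lines, -0.73 (SE 0.17; edgeR adjusted p = 0.000155), passed under all 16 alternatives tried.

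SNHG16 (ENSG00000163597; chromosome 17, 76557766 to 76565348, forward strand), the host of SNORD1A, SNORD1B and SNORD1C, was called in neither line. It ranged from 50.7 to 54.0 CPM in Kyse150 shKDM2A and from 54.5 to 59.9 CPM in Kyse150 shNC. In TE11 it ranged from 51.1 to 56.6 CPM in the labelled shKDM2A libraries and from 47.9 to 52.3 CPM in shNC. Over all 4 groups the SNHG16 values lay within 47.9 to 59.9 CPM, the narrowest relative range among the members. That range crosses the tables, and the TE11 table alone lists an opposite-strand gene that shares 1639 exonic bases with SNHG16. Its effect on the SNHG16 level was not tested. The log2 change of SNHG16 came to -0.13 (SE 0.10; edgeR adjusted p = 0.293) in Kyse150 and to 0.12 (SE 0.09; edgeR adjusted p = 0.21) in TE11.

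ZFAS1 (ENSG00000177410; chromosome 20, 49278178 to 49295738, forward strand) runs antisense to the 5′ end of ZNFX1 and hosts the SNORD12 family shown above. It rose in Kyse150, with 84.9 and 80.2 CPM in shKDM2A against 62.0 and 53.6 CPM in shNC (log2 fold change 0.51, SE 0.09; edgeR adjusted p = 5.1e-05). In TE11 it had 10.2 and 9.79 CPM in labelled shKDM2A, against 8.41, 10.6 and 10.6 CPM in shNC, and the groups overlapped (log2 fold change 0.02, SE 0.17; edgeR adjusted p = 0.932). The difference of the responses, -0.47 (SE 0.18; edgeR adjusted p = 0.0204), was lost without Kyse150 shKDM2A replicate 1 (-0.43, edgeR adjusted p = 0.0658), Kyse150 shNC replicate 2 (-0.37, 0.104) or labelled TE11 shKDM2A replicate 2 (-0.44, 0.0845). The level of ZFAS1 cannot be compared between the tables. The TE11 table lists 3 small RNA entries (ENSG00000277830, ENSG00000274760 and ENSG00000277967) that cover 198, 93 and 87 exonic bases of ZFAS1 on its own strand, each at 0 counts, and the Kyse150 table lists none of them. Fragments that fall on more than 1 entry can be set aside as ambiguous in such counting. Ambiguous fragments made up 2.45% to 2.72% of a TE11 column and 1.85% to 1.96% of a Kyse150 column, and their part in the level of ZFAS1 was not tested.

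SNHG12 (ENSG00000197989; chromosome 1, 28578538 to 28583132, reverse strand) hosts snoRNAs of both classes, SNORD99 and 4 H/ACA entries. In both lines it was lower in the libraries labelled shKDM2A. Kyse150 held 18.3 and 19.9 CPM in shKDM2A, against 24.6 and 26.4 CPM in shNC. The TE11 values were 8.26 and 5.67 CPM in the labelled shKDM2A libraries, against 22.0, 24.8 and 21.1 CPM in shNC. The labelled TE11 libraries held the lowest SNHG12 of all groups, on 71 and 51 counts. SNHG12 changed on the log2 scale by -0.42 in Kyse150 (SE 0.15; edgeR adjusted p = 0.0219) and -1.70 in TE11 (SE 0.16; edgeR adjusted p = 4.28e-13), and the difference was -1.26 (SE 0.22; edgeR adjusted p = 1.68e-06). The Kyse150 call was lost without shKDM2A replicate 1 (-0.36, edgeR adjusted p = 0.133) or shNC replicate 2 (-0.37, 0.109).

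The remaining members host box H/ACA snoRNAs. SNHG7 (ENSG00000233016, chromosome 9, 136721366 to 136728184, reverse strand), the host of SNORA17A and SNORA17B, differed in opposite directions between the groups as labelled. It had 55.0 and 49.5 CPM in Kyse150 shKDM2A, against 102 and 97.3 CPM in Kyse150 shNC. TE11 libraries held 86.5 and 79.1 CPM in the labelled shKDM2A libraries, against 32.0, 26.9 and 28.3 CPM in shNC. In each line the groups lay far apart relative to the spread within them. SNHG7 changed on the log2 scale by -0.93 in Kyse150 (SE 0.09; edgeR adjusted p = 2.23e-09), the largest fall of the members there, and 1.51 in TE11 (SE 0.09; edgeR adjusted p = 5.32e-20). The difference between the lines, 2.47 (SE 0.13; edgeR adjusted p = 3.5e-25), was the largest of the 10.

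SNHG8 (ENSG00000269893; chromosome 4, 118278709 to 118279823, forward strand) hosts SNORA24. It had 20.3 and 16.5 CPM in Kyse150 shKDM2A, against 20.7 and 18.1 CPM in Kyse150 shNC, and the groups overlapped (log2 fold change -0.07, SE 0.16; edgeR adjusted p = 0.742). In TE11 it had 21.3 and 25.8 CPM in the labelled shKDM2A libraries, against 49.2, 57.7 and 50.8 CPM in shNC. As with SNHG5, the TE11 shNC libraries stood apart from the other 3 groups, here on the high side. On the log2 scale SNHG8 differed by -1.16 in TE11 (SE 0.11; edgeR adjusted p = 1.62e-13), and the difference between the lines was -1.06 (SE 0.19; edgeR adjusted p = 1.82e-06).

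SNHG15 (ENSG00000232956, chromosome 7, 44983023 to 44986961, reverse strand), the host of SNORA9, was lower in the libraries labelled shKDM2A of both lines. It had 41.1 and 40.8 CPM in Kyse150 shKDM2A, against 71.1 and 67.8 CPM in Kyse150 shNC. SNHG15 in TE11 was at 49.9 and 46.7 CPM in the labelled shKDM2A libraries, against 61.9, 67.3 and 65.6 CPM in shNC. The groups were apart in both lines. SNHG15 changed on the log2 scale by -0.76 in Kyse150 (SE 0.10; edgeR adjusted p = 3.6e-07) and -0.43 in TE11 (SE 0.09; edgeR adjusted p = 1.76e-05). The difference, 0.36 (SE 0.13; edgeR adjusted p = 0.0145), was lost without Kyse150 shNC replicate 1 (0.33, edgeR adjusted p = 0.051) or labelled TE11 shKDM2A replicate 1 (0.31, 0.0748).

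**Figure D2:**
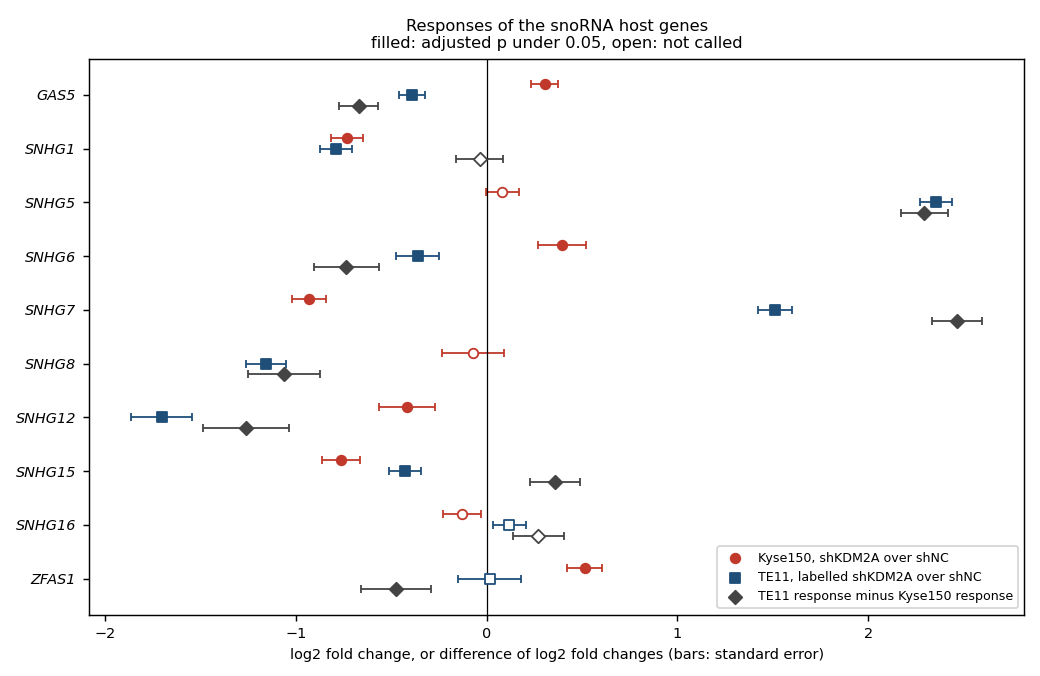
Log2 fold change of each host gene (x axis) in Kyse150 (red circles), TE11 (blue squares) and the TE11 response minus the Kyse150 response (grey diamonds). Bars are standard errors derived from the F statistic of the test. Filled marks have an edgeR adjusted p under 0.05. SNHG1, SNHG12 and SNHG15 lie left of 0 in both lines, and SNHG7 lies at -0.93 in Kyse150 and 1.51 in TE11.

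In all, 3 members were called the same way in both lines, 3 in opposite ways, 1 in Kyse150 only, 2 in TE11 only and 1 in neither. The difference between the lines was called for 8 of the 10, 3 with a higher and 5 with a lower TE11 response, beside 66.9% of all genes (33.8% higher and 33.1% lower). The groups did not overlap for 9 members in Kyse150 and for 8 in TE11, where this holds for 73.3% of all genes tested in Kyse150 (37.1% higher and 36.2% lower) and for 84.3% in TE11 (39.1% higher and 45.2% lower). The mean level in the libraries labelled TE11 shKDM2A was set between both sets of controls. It was closer on the log2 scale to Kyse150 shNC for 6 members and to TE11 shNC for 4. Of these 4, ZFAS1 has levels that cannot be compared between the tables. The 7 hosts with exonic entries in the TE11 table alone, SNHG1, SNHG7 and SNHG8 among them, also carry a table difference of untested size. For SNHG7 the labelled libraries averaged 82.8 ± 5.21 CPM (SD, n = 2), beside 99.8 ± 3.46 CPM in Kyse150 shNC (SD, n = 2) and 29.1 ± 2.63 CPM in TE11 shNC (SD, n = 3). For SNHG8 they averaged 23.6 ± 3.19 CPM (SD, n = 2), beside 19.4 ± 1.84 CPM in Kyse150 shNC (SD, n = 2) and 52.6 ± 4.49 CPM in TE11 shNC (SD, n = 3). The means of SNHG1, SNHG6, SNHG12 and SNHG15 lay below those of both controls, and that of SNHG5 lay above both. SNHG1 averaged 58.4 ± 3.37 CPM in labelled TE11 shKDM2A (SD, n = 2), 131 ± 0.219 CPM in Kyse150 shNC (SD, n = 2) and 101 ± 10.2 CPM in TE11 shNC (SD, n = 3). These levels were scaled within each table and were not tested across tables.

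Several host genes lie next to, or overlap, a gene on the other strand, and whether counting used strand is unknown here. SLC3A2, which encodes the heavy chain of an amino acid transporter, starts 188 bases from SNHG1 and runs the other way. It had 1399 and 1330 CPM in Kyse150 shKDM2A, against 922 and 958 CPM in Kyse150 shNC, and 1065 and 938 CPM in labelled TE11 shKDM2A, against 681, 658 and 685 CPM in TE11 shNC. In both lines SLC3A2 was thus higher, and SNHG1 lower, in the libraries labelled shKDM2A. The log2 fold changes of SLC3A2 were 0.54 in Kyse150 (SE 0.05, edgeR adjusted p = 9.14e-10) and 0.57 in TE11 (SE 0.06, edgeR adjusted p = 2.19e-12). ZBTB37, a zinc finger gene whose span overlaps that of GAS5 by 801 bases but not its exons, rose 1.52-fold in Kyse150 (edgeR adjusted p = 0.00256) and was 1.66-fold higher in labelled TE11 shKDM2A (edgeR adjusted p = 0.000285). PRSS12, a serine protease gene 215 bases from SNHG8, held 6 and 3 counts in labelled TE11 shKDM2A, against 605, 628 and 648 in TE11 shNC (log2 fold change -6.69, SE 0.21; edgeR adjusted p = 8.12e-30). In Kyse150 it held 3 counts in shKDM2A and 4 in shNC and was not tested. PRSS12 and SNHG8 were thus both lower in the same labelled libraries.

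Exon overlap was largest for SNHG16 and SNHG7. In the TE11 table ENSG00000284526, a coding gene on the other strand, shares 1639 exonic bases with SNHG16, and it had 24.7 and 22.4 CPM in labelled shKDM2A against 20.2, 21.6 and 17.0 CPM in shNC. The Kyse150 table does not list it. DIPK1B shares 1094 exonic bases with SNHG7 and fell to 0.46 of shNC in Kyse150 (log2 SE 0.32; edgeR adjusted p = 0.00516), while in TE11 it stood at 0.89 (edgeR adjusted p = 0.345). Its level was 2.84 ± 1.04 CPM in Kyse150 shKDM2A and 6.26 ± 1.45 CPM in Kyse150 shNC (SD, n = 2 each). In TE11 it was 9.61 ± 0.418 CPM in labelled shKDM2A (SD, n = 2) and 10.8 ± 0.767 CPM in shNC (SD, n = 3). MCMDC2 shares 365 exonic bases with SNHG6 and was called in neither line (edgeR adjusted p = 0.674 in Kyse150 and 0.704 in TE11). ZNFX1, a helicase of antiviral defence, shares 249 bases with ZFAS1 and rose 1.18-fold in Kyse150 (edgeR adjusted p = 0.00406) and 1.34-fold in labelled TE11 shKDM2A (edgeR adjusted p = 9.15e-07). TRNAU1AP, a selenocysteine tRNA-associated protein gene that meets SNHG12 end to end over 8 bases, stood at 0.808 of shNC in Kyse150 (edgeR adjusted p = 0.16) and fell to 0.496 in labelled TE11 shKDM2A (edgeR adjusted p = 8.86e-09). GAS5-AS1, which shares 42 bases with GAS5, averaged 2.64 to 5.04 CPM in the groups and was lower in labelled TE11 shKDM2A (edgeR adjusted p = 0.0181) but not called in Kyse150 (edgeR adjusted p = 0.391). What unstranded reads would add to any host gene was not tested.

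**Figure D3:**
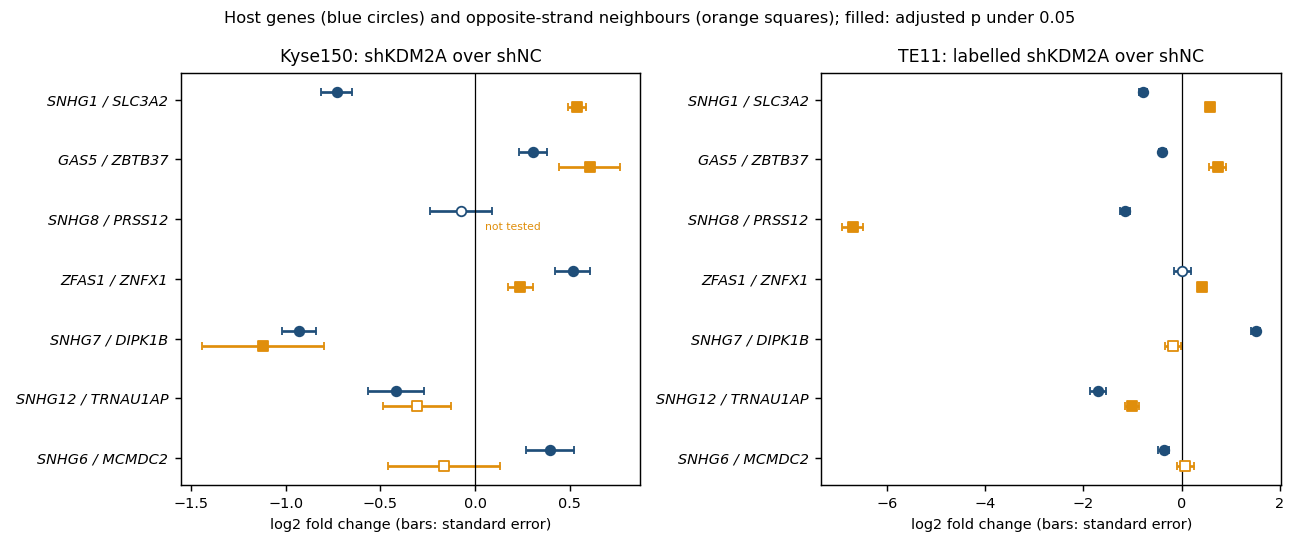
Log2 fold change (x axis) of 7 host genes (blue circles) and of their opposite-strand neighbours (orange squares) in Kyse150 (left) and TE11 (right, with a wider axis). Bars are standard errors derived from the F statistic of the test. Filled marks have an edgeR adjusted p under 0.05. SNHG1 and SLC3A2 lie on opposite sides of 0 in both lines.

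Of 20 other noncoding snoRNA host genes 17 could be tested in each line. Over all genes tested, 24.8% were called higher and 23.3% lower in Kyse150, and 35.9% higher and 42.2% lower in TE11. Of these other hosts 1 rose and 5 fell in Kyse150, with a median log2 fold change of -0.22. In TE11 8 were higher and 7 lower in the labelled libraries, with a median of -0.19. The 1 that rose in Kyse150 was SNHG29, named after its values were seen (1.15-fold; edgeR adjusted p = 0.00395). SNHG17 fell to 0.662 of shNC in Kyse150 (edgeR adjusted p = 4.07e-05) and was 1.39-fold higher in labelled TE11 shKDM2A (edgeR adjusted p = 9.91e-05). SNHG26 fell to 0.41 and was 1.48-fold higher, and DANCR fell to 0.712 in Kyse150. SNHG25 held 3 counts in Kyse150 shKDM2A and 29 in shNC. In TE11 SNHG22 was 4.11-fold higher, while SNHG4, SNHG3 and EPB41L4A-AS1 stood at 0.22, 0.425 and 0.514 of shNC, all past the test.

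Protein-coding genes that also carry snoRNAs in their introns, many of them for ribosomal proteins, had 12 of 50 higher and 17 lower in Kyse150 (median log2 fold change -0.04), and 26 higher and 13 lower in TE11 (0.17). Over all genes tested, 48.2% were called in either direction in Kyse150 and 78.1% in TE11. HSPA8, a chaperone, fell to 0.531 of shNC in Kyse150 and was 4.52-fold higher in labelled TE11 shKDM2A. EIF4G2, a translation initiation factor, fell to 0.566 and was 2.35-fold higher, and RPS13, a small-subunit protein, fell to 0.814 and was 2.04-fold higher. RPL13A, of the large subunit, rose 1.21-fold in Kyse150 and stood at 0.544 of shNC in labelled TE11 shKDM2A. NCL and NOP56, nucleolar proteins, fell to 0.607 and 0.524 of shNC in Kyse150. Pseudogene copies of ribosomal protein genes make the counts of RPS13 and RPL13A uncertain.

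Of 18 tested core and assembly proteins of the snoRNA particles 12 fell and 0 rose in Kyse150 (median log2 fold change -0.27), and of 20 in TE11 12 were higher and 5 lower (0.51). Over all genes tested, 24.8% rose and 23.3% fell in Kyse150, and 35.9% were higher and 42.2% lower in TE11. Among the C/D core NOP58 fell to 0.46 and NOP56 to 0.524 of shNC in Kyse150. Among the H/ACA core DKC1, the pseudouridine synthase, fell to 0.625 and GAR1 to 0.56. In labelled TE11 shKDM2A DKC1 was 1.75-fold, NHP2 2.76-fold, NOP10 2.47-fold and NOLC1, a snoRNP chaperone, 1.76-fold higher. NOP56 and DKC1 are themselves snoRNA host genes and stand in both lists.

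Factors of nonsense-mediated decay, which degrades several spliced host RNAs, had 14 of 17 lower and 1 higher in Kyse150 (median log2 fold change -0.39) and 12 of 18 higher and 3 lower in TE11 (0.41). The shares over all genes tested were 23.3% lower and 24.8% higher in Kyse150, and 35.9% higher and 42.2% lower in TE11. In Kyse150 the release factor ETF1 fell to 0.612, and the exon junction proteins EIF4A3, CASC3 and MAGOH to 0.698, 0.729 and 0.595 of shNC. The 1 that rose there was NBAS (1.39-fold). In labelled TE11 shKDM2A RBM8A was 2.66-fold, SMG9 2.48-fold and MAGOH 1.99-fold higher, whereas NBAS stood at 0.504 of shNC. Of 7 coding transcripts listed as substrates of this decay, 5 rose and 1 fell in Kyse150, and 3 were higher and 2 lower in TE11. ATF3, a stress-induced transcription factor, rose 3.01-fold in Kyse150 and 2.87-fold in labelled TE11 shKDM2A, and UPP1, uridine phosphorylase, 1.51-fold and 2.48-fold. ATF4 and DDIT3, of the stress response, rose 1.23-fold and 1.9-fold in Kyse150. In labelled TE11 shKDM2A ATF4 stood at 0.488 of shNC and TBL2 was 1.82-fold higher. Decay itself was not measured.

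**Figure D4:**
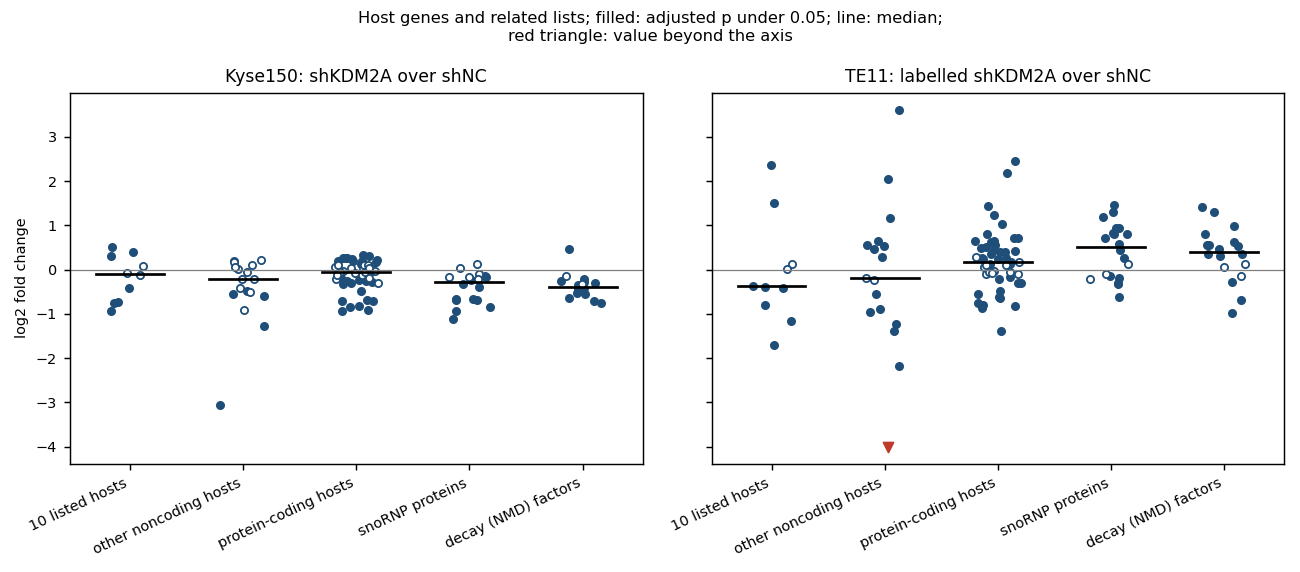
Log2 fold change (y axis) of each tested gene (points; filled: edgeR adjusted p under 0.05) in the 10 host genes and in related lists, in Kyse150 (left) and TE11 (right); lines are medians, and the red triangle is a gene beyond the axis. The medians of the snoRNP proteins and decay factors lie at -0.27 and -0.39 in Kyse150 and at 0.51 and 0.41 in TE11.

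The level pattern of the members over the 9 libraries was last set against 8745 other genes with a symbol and a mean of at least 10 CPM in each table. The genes most like the mean of the centred log2(CPM + 1) values were LRFN4, C1orf159, ALPP, SRRM2 and LIMK2, with Pearson r of 0.982, 0.98, 0.976, 0.974 and 0.973. These are the 5 highest of all candidates over 9 libraries that share line, table and depth within groups, and they are a description. The mean pattern itself stood at 0.13 to 0.34 in the Kyse150 libraries and at -0.23 to -0.097 in the TE11 libraries. It includes ZFAS1, whose level cannot be compared between the tables. How far line and table carry the likeness was not tested.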

How the data were processed

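The authors deposited raw gene counts, whole numbers without scaling, in 1 table per line, with 57820 genes for Kyse150 and 60683 for TE11. The submitters' processing notes list HTSeq 0.9.1, HISAT2 2.1.0, bcl2fastq 2.19 and DESeq2, with 2 builds, GRCh38.p13 and GRCh37.p13, with no link between build and table. Whether counting used strand is not stated in those sources. Summary rows of HTSeq entered neither library sizes nor tests. Fragments that HTSeq assigned to no feature made up 42.3% to 44.5% of a column, and those aligned to more than 1 place 2.94% to 6.78%. As the strand setting and the counted features are unknown, some fragments without a feature may lie within genes. Members and lists were chosen with earlier results of these data known.

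Genes passing filterByExpr (minimum count 10, minimum total 15) were scaled by TMM. Each line was fitted separately in edgeR 4.0.16 under R 4.3.3 (robust quasi-likelihood, group as the only term); p-values were adjusted by Benjamini-Hochberg across every gene of the fit, and 0.05 was the threshold. All 10 members passed the filter in both tables. The difference between lines was a contrast in 1 fit of all 9 libraries. Each SE was derived as the absolute log2 fold change divided by the square root of the F statistic of the quasi-likelihood test. It is not the standard error of a fitted coefficient. It is approximate and can be too small for a large change on few counts, as for PRSS12 in TE11. The scripts were tested on simulated counts. Of the other lists, the 4 genes with the smallest p in each line were named, marker lists being given as sums and counts with SOX2 as the named gene, and SNHG29 was added after its values were seen. Not every gene that overlaps a member is reported here. Replicates differed by more than counting noise (chi-square per degree of freedom 1.62 to 4.91), and each was kept as its own library. Alternatives were DESeq2 1.42.0, further scalings and filters, a replicate block, 1 fit over all libraries and leaving out single libraries. Symbols and coordinates come from a table of gene names and GENCODE release 29, promoters from RefSeq.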

Additional observations from a re-analysis of the deposited data

Results flagged for a closer look

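The responses of 8 members differed between the lines by the test of the difference itself, which is why they are listed here. The difference (TE11 minus Kyse150, log2) was 2.47 for SNHG7, 2.29 for SNHG5, 0.36 for SNHG15, -0.47 for ZFAS1, -0.67 for GAS5, -0.73 for SNHG6, -1.06 for SNHG8 and -1.26 for SNHG12. The TE11 side of each difference compares libraries whose KDM2A was not below the controls and that correlated more closely with Kyse150 shNC than with TE11 shNC. Line, table and annotation cannot be told apart in it.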

How the results depend on the processing

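No member reversed direction while called under any alternative, and 393 of 410 member tests kept their side of the threshold, with 14 calls lost and 3 gained. The count of members called was 5 to 7 in Kyse150, 7 to 8 in TE11 and 7 to 9 for the difference between lines. By DESeq2 the Kyse150 calls of SNHG6 and SNHG12 were lost (DESeq2 adjusted p = 0.101 and 0.135), and that tool called 2156 genes higher and 2181 lower in Kyse150, where edgeR called 3490 and 3281. The difference for SNHG15 was lost with upper quartile scaling (0.24, edgeR adjusted p = 0.105) and that for ZFAS1 with the replicate block (-0.42, edgeR adjusted p = 0.0685), while that for SNHG16 was gained without Kyse150 shNC replicate 2 (0.34, edgeR adjusted p = 0.0459), labelled TE11 shKDM2A replicate 1 (0.34, 0.0485) or TE11 shNC replicate 1 (0.29, 0.0438). The causes were not tested. For KDM2A in TE11 the log2 fold change was 0.10 with upper quartile scaling, 0.16 without a filter, 0.14 with a filter of 1 CPM, 0.15 with DESeq2 and 0.17 with the replicate block, none of which kept the call, and 0.10 to 0.24 with 1 library left out. It lost the call without labelled shKDM2A replicate 2 (edgeR adjusted p = 0.398), shNC replicate 2 (0.0772) or shNC replicate 3 (0.0969). Deviations of same-numbered libraries from their group means correlated at r = -0.07 in Kyse150 and at -0.0098 to 0.00058 in TE11. These values gave no sign of pairing by number, but with so few libraries in a group they cannot exclude it. With the replicate block 7 members were called in Kyse150, 8 in TE11 and 7 for the difference. Without a filter the median over all genes tested in TE11 was -0.46.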
